A study of Mus musculus with 9 samples.

Results

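The 10 genes described here belong to the unfolded protein response and the response to amino acid shortage, and were followed across the cell classes of the mouse heart: Ern1, Atf6, Atf4, Xbp1, Ddit3, Hspa5, Herpud1, Asns, Trib3 and Chac1. They were taken by symbol from the deposited gene lists and are 10 of 32285 genes. The choice was made with earlier results of these data known. The samples were single-nucleus RNA-seq libraries from heart tissue of male wild-type (WT) mice aged 9-10 weeks, 3 libraries in each of 3 groups. NS-Sham mice had a thoracotomy without occlusion and received normal saline (NS). NS-I/R mice received saline and underwent ischemia/reperfusion (I/R): the left anterior descending coronary artery was closed for 45 min, then 24 h of reperfusion. Enpa-I/R mice had the same injury and received enpatoran, an antagonist of the RNA sensor TLR7, as 2 intraperitoneal doses of 5 mg/kg, the first given 1 h before ischemia. The second dose came 2 h after the first by the series' design text and right after ischemia by the treatment protocol. No sham group with enpatoran was analysed here, so the drug can be read only within injured hearts. The labels call the 3 libraries of a group replicates and do not say whether each came from 1 heart, so p-values measure the spread between libraries.

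The endoplasmic reticulum (ER) folds secreted and membrane proteins, and the sensors Ire1 (encoded by Ern1), Atf6 and Perk detect unfolded protein there. Ire1 splices Xbp1 mRNA into the form that encodes an active transcription factor, cleaved Atf6 switches on ER chaperones such as Hspa5 (BiP), and Perk slows translation while the translation of Atf4 goes up. Atf4 is also reached through Gcn2 (Eif2ak4) when amino acids run short, and its targets include Asns, Trib3, Chac1 and Ddit3. In the heart this response is known from hypoxia, ischemia and pressure overload. Gene-level counts in nuclei give the RNA of each gene and tell neither spliced from unspliced Xbp1 nor the amount of any protein.

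Several of these genes are known through short promoter motifs, which are printed here to show which of the genes carry an element of the chaperone branch (ERSE types) or of the Atf4 branch (CARE). Promoters of 9 of the 10 genes (250 bases before to 50 after the gene's start) were in the RefSeq table of the mouse build GRCm38.p6; Atf6 was not in it. Both strands of the 250 upstream bases were searched for the ER stress element ERSE (CCAAT and CCACG with 9 bases between them), for ERSE-II (ATTGG and CCACG with 1 base between them), for the UPRE core (TGACGTGG) and for the composite C/EBP-Atf element CARE (TGATGNAA). Over 32851 promoters, 0.113% held ERSE, 0.0304% ERSE-II, 0.563% UPRE and 3.45% CARE. Hspa5 held ERSE at -65 to -47 from its start, Herpud1 held ERSE-II at -52 to -42 and CARE at -112 to -105, Chac1 held CARE at -193 to -186 and Asns at -23 to -16. The windows of Atf4, Xbp1, Ern1, Ddit3 and Trib3 held no exact match to these spellings. Variant spellings and sites outside the 250 bases were not searched, so the lack of a match does not show that a gene lacks the element. Each sequence runs 5′ to 3′ on the gene's strand, with the fixed letters of the motif in capitals.
Hspa5, chr2:34772005-34772063, plus strand: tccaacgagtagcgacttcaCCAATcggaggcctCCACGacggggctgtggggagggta
Herpud1, chr8:94386297-94386407, plus strand: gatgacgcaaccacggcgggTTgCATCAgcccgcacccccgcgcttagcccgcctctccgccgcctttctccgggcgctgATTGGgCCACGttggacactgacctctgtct
Asns, chr6:7693210-7693252, minus strand: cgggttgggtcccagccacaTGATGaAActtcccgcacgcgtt
Chac1, chr2:119351029-119351076, plus strand: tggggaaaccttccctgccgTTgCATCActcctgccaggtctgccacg

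After filtering, 41875 nuclei of 56766 barcodes were kept (3155 to 6448 a library, with 19651794 to 38970153 UMIs in the deposited matrices), and 425 barcode sequences occurred in more than 1 library. Nuclei fell into 26 clusters, of which 25 carried the markers of a named class. Cardiomyocyte-like nuclei numbered 3269 in sham hearts, 2920 after saline I/R and 3187 after Enpa-I/R, endothelial-like nuclei 4463, 3983 and 4295, fibroblast-like nuclei 2772, 3271 and 2636, and macrophage-like nuclei 823, 1383 and 1123. Different clusters made up a class in different groups. Among cardiomyocyte-like nuclei, cluster 2 (led by Mhrt, Rbm20 and Kcnd2) held 63.0% in NS-Sham, 2.02% after saline I/R and 17.0% after Enpa-I/R, and cluster 9 (with Xirp2 and Ank3 among its leading genes) held 0.0306%, 49.0% and 18.2%. Cluster 24 (Tnc) held 0.216%, 40.7% and 32.5% of the fibroblast-like nuclei, cluster 20 (Arg1) 6.32%, 52.9% and 38.6% of the macrophage-like nuclei, and cluster 8 0.157%, 24.4% and 8.47% of the endothelial-like nuclei. Library NS-I/R 3 stood apart from the other saline I/R libraries. Cluster 9 held 36.5% of its cardiomyocyte-like nuclei against 54.4% and 56.1%, and the sham-type fibroblast cluster 10 held 23.5% of its fibroblast-like nuclei against 7.39% and 4.17%. Log2 changes of the 10 genes within a class that rest on this library are given with and without it. The sizes of differences between classes and the shares of nuclei are given with it only. For the pathway genes only the counts called with enpatoran are given both ways. The library was singled out from these same data, so values without it are descriptions and not further tests.

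Levels are raw UMIs of a class summed over its nuclei in each library and scaled to CPM, a common library total, with edgeR's TMM factors. They are in a sum of nuclei, so more RNA in each nucleus and more nuclei of a high-expressing kind cannot be told apart. A gene was called when the adjusted p of edgeR's quasi-likelihood test (Benjamini-Hochberg over all genes tested in that class) was under 0.05, and "rose" and "fell" are used for called genes. Log2 fold changes are given with their standard error (SE). The 2 comparisons share the NS-I/R libraries, so a high or low NS-I/R library moves both. Groups without overlap were common among all genes tested. With I/R, 27.2% lay wholly higher and 26.3% wholly lower in cardiomyocyte-like nuclei. These shares were 22.5% and 21.9% in endothelial-like, 26.1% and 27% in fibroblast-like, and 23% and 21.4% in macrophage-like nuclei. With enpatoran they were 17.1% and 18.9%, 13.4% and 13.6%, 14.6% and 14.9%, and 12.8% and 12.5% in the same order.

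I/R raised Atf4, Xbp1 and Hspa5 together in most cell classes, while Herpud1 fell in cardiomyocyte-like and endothelial-like nuclei. Of 9 genes tested in cardiomyocyte-like nuclei, 4 rose (Atf4, Xbp1, Hspa5, Trib3) and 1 fell (Herpud1), where 46.3% of all genes tested in that class were called (24.3% higher, 22% lower). In endothelial-like nuclei 4 rose (Atf4, Xbp1, Hspa5, Atf6) and 1 fell (Herpud1) of 9, against 34.2% of all genes (17.8% higher, 16.4% lower). In fibroblast-like nuclei 6 of 9 rose (Atf4, Xbp1, Hspa5, Atf6, Ern1, Asns), against 46.2% called in either direction (23.2% higher, 23% lower). In macrophage-like nuclei 2 rose (Atf4, Xbp1) and 1 fell (Atf6) of 7, against 34.2% (17.7% higher, 16.5% lower). Pericyte-like nuclei had 4 of 7 higher (Atf4, Xbp1, Hspa5, Ern1; background 24%, 12.1% higher and 11.9% lower) and lymphatic endothelial-like nuclei 2 of 6 (Atf4, Hspa5; background 15.5%, 6.72% higher and 8.78% lower). In smooth muscle-like nuclei 0 of 6 were called by edgeR (background 9.25%, 3.7% higher and 5.55% lower), 2 had an unadjusted p under 0.05 and DESeq2 called 0. Over all nuclei 5 rose and 1 fell of 10, against 47.8% (24.7% higher, 23.1% lower). The counts are to be read against these backgrounds, and whether the 10 genes differ from other genes was not tested.

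**Figure D1:**
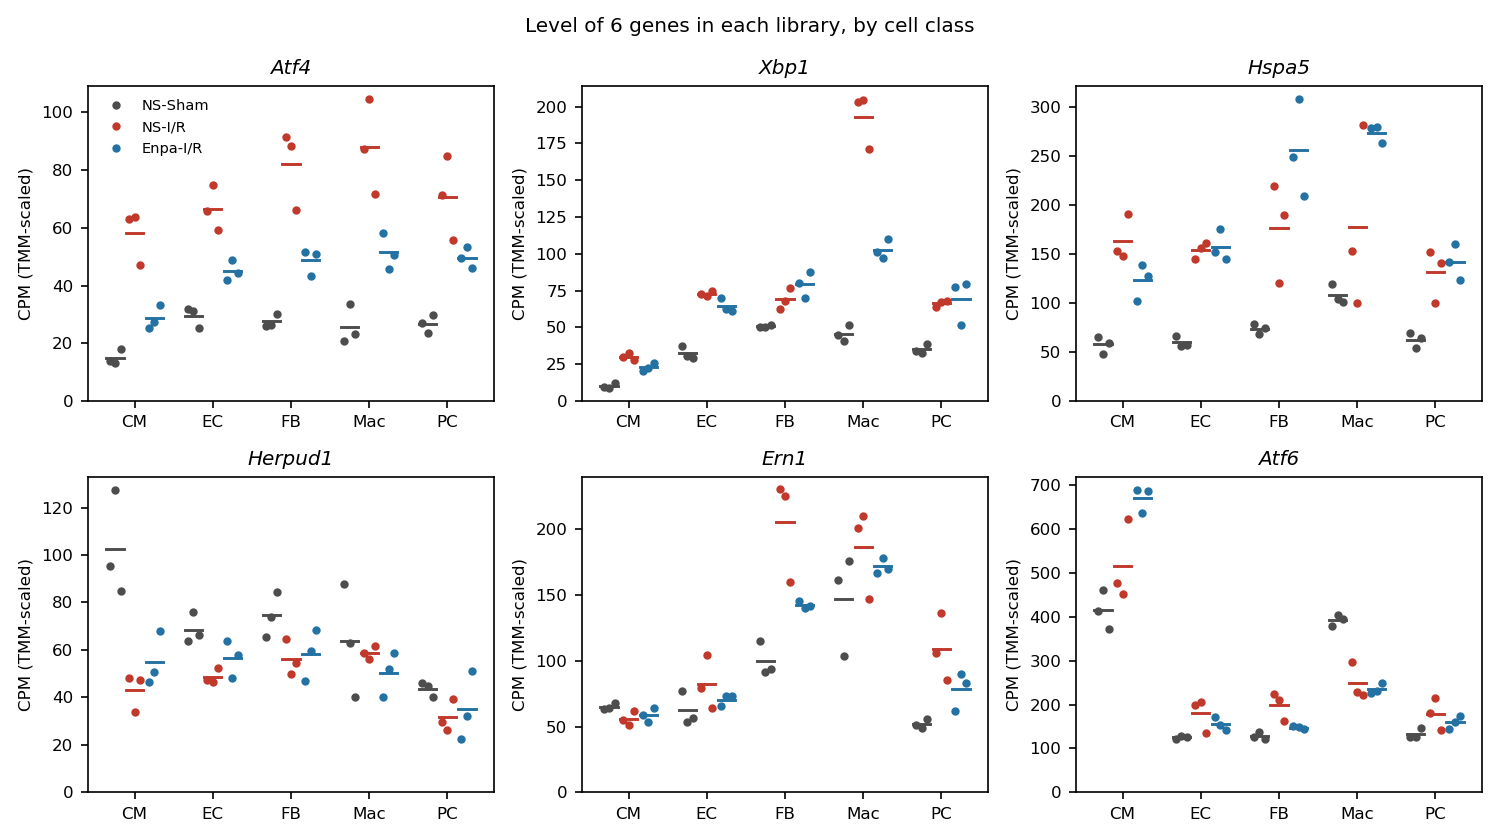
CPM of Atf4, Xbp1, Hspa5, Herpud1, Ern1 and Atf6 (linear axes from 0) in each library, by cell class: cardiomyocyte-like (CM), endothelial-like (EC), fibroblast-like (FB), macrophage-like (Mac) and pericyte-like (PC). Points are the 3 libraries of a group and bars their mean; the NS-I/R points of Atf4 lie above all sham and all Enpa-I/R points in each class shown.

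Among the transcription factors, Atf4, the shared effector of the stress kinases, rose in 6 of the 7 classes tested and was lower again with enpatoran in 4. In cardiomyocyte-like nuclei its level was 13.7, 13 and 17.9 CPM in the NS-Sham libraries, 63.2, 63.8 and 47.1 CPM in NS-I/R and 25.2, 27.3 and 33.3 CPM in Enpa-I/R. The groups did not overlap, and the lowest NS-I/R library was NS-I/R 3. As UMIs per nucleus the level went from 0.146 to 0.64 and 0.291. The increase with I/R was 1.97 on the log2 scale (SE 0.19, edgeR adjusted p = 4.59e-05) and the difference of Enpa-I/R from NS-I/R was -1.02 (SE 0.18, edgeR adjusted p = 0.0106). Fibroblast-like nuclei had 26.1, 26.4 and 30.2 CPM in NS-Sham, 91.3, 88.3 and 66.4 CPM in NS-I/R and 51.7, 43.4 and 51.1 CPM in Enpa-I/R. Macrophage-like nuclei had 20.8, 33.5 and 23.1, then 87.5, 104.6 and 71.7, then 58.3, 45.7 and 50.6 CPM. In both classes every NS-I/R library lay above every Enpa-I/R library, and every Enpa-I/R library above every sham library. With I/R Atf4 rose by 1.58 in fibroblast-like (SE 0.16, edgeR adjusted p = 1.83e-05), 1.69 in macrophage-like (SE 0.25, 8.92e-05), 1.17 in endothelial-like (SE 0.15, 9.03e-05), 1.43 in pericyte-like (SE 0.23, 0.000338) and 1.25 in lymphatic endothelial-like nuclei (SE 0.42, 0.0494). In smooth muscle-like nuclei the change was 0.88 (SE 0.36, edgeR adjusted p = 0.146). Under enpatoran it was lower by edgeR in fibroblast-like (log2 -0.75, SE 0.15, adjusted p = 0.0205), endothelial-like (-0.57, SE 0.14, 0.0351) and macrophage-like nuclei (-0.77, SE 0.21, 0.0404). In pericyte-like nuclei it was -0.51 (SE 0.22, edgeR adjusted p = 0.167; -0.66 and 0.0283 without NS-I/R 3) and in neutrophil-like nuclei -0.34 (SE 0.34, 0.644). Without NS-I/R 3 the enpatoran difference was larger in the 4 called classes (-1.14 in cardiomyocyte-like, -0.64 in endothelial-like, -0.87 in fibroblast-like and -0.89 for macrophage-like nuclei). The enpatoran calls lay near the threshold: they were lost without Enpa-I/R 1 in cardiomyocyte-like nuclei (edgeR adjusted p = 0.0522), and without any 1 of 6 libraries in endothelial-like (0.0521 to 0.155), 5 in fibroblast-like (0.0674 to 0.0908) and 6 in macrophage-like nuclei (0.0515 to 0.182). The I/R call in lymphatic endothelial-like nuclei was lost without any 1 of 6 libraries (0.0503 to 0.19). The increase in endothelial-like nuclei was smaller than in cardiomyocyte-like nuclei by 0.76 log2 units (edgeR interaction, adjusted p = 0.0207), a difference lost without any 1 of 4 libraries (0.0519 to 0.127).

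Xbp1, the transcription factor activated by Ire1 splicing, showed its largest increase in macrophage-like nuclei. There it measured 44.7, 40.4 and 51.9 CPM in NS-Sham, 203.5, 204.3 and 171.4 CPM in NS-I/R and 101.3, 96.9 and 110.3 CPM in Enpa-I/R. No libraries of different groups overlapped, and the Enpa-I/R libraries lay between the other groups. Xbp1 rose by 2.11 with I/R (SE 0.18, edgeR adjusted p = 5.9e-07) and was 0.91 lower in Enpa-I/R than in NS-I/R (log2 -0.91, SE 0.15, edgeR adjusted p = 0.00381). Neither change passed the test of a difference from cardiomyocyte-like nuclei. These differences were 0.59 with I/R (edgeR interaction, adjusted p = 0.114) and -0.5 with enpatoran (0.206). Cardiomyocyte-like nuclei had 9.65, 8.78 and 12.5 CPM in NS-Sham, 30.04, 32.4 and 28 CPM in NS-I/R and 20.4, 22.3 and 25.9 CPM in Enpa-I/R. The increase of 1.56 passed the test (SE 0.17, edgeR adjusted p = 9.43e-05); the enpatoran difference of -0.4 did not (SE 0.16, 95% interval -0.72 to -0.08, adjusted p = 0.1), and did without NS-I/R 3 (-0.44, adjusted p = 0.0436). The increase was 1.18 in endothelial-like (SE 0.13, edgeR adjusted p = 4.44e-05), 0.94 in pericyte-like (SE 0.22, 0.00558) and 0.45 in fibroblast-like nuclei (SE 0.13, 0.0155). In fibroblast-like nuclei it was smaller than in cardiomyocyte-like nuclei by 1.04 (edgeR interaction, adjusted p = 0.00148). Fibroblast-like nuclei were 50.3, 50.0 and 51.9 CPM in NS-Sham and 62.3, 68.3 and 76.5 CPM in NS-I/R, and the call was lost without NS-Sham 1 or NS-Sham 2 (edgeR adjusted p = 0.0504 each). The change was 1.32 in lymphatic endothelial-like (SE 0.48, edgeR adjusted p = 0.0667) and 0.58 in smooth muscle-like nuclei (SE 0.37, 0.373). Neutrophil-like nuclei, which were nearly absent from sham hearts (5 nuclei against 1415 and 340), had 418.5, 404.7 and 168.9 CPM in NS-I/R and 230.3, 126.5 and 161.7 CPM in Enpa-I/R. These groups overlapped through NS-I/R 3 (log2 -0.94, SE 0.37, edgeR adjusted p = 0.196), and without it the difference was -1.3 (adjusted p = 5.09e-05). The marker lists of other cells moved in the macrophage-like class too. All 7 neutrophil markers had UMIs there in NS-I/R and Enpa-I/R, and 5 of 7 in NS-Sham, with S100a8 and Retnlg at 0. Their summed level was 71.6 to 93.4 CPM for NS-Sham, 355 to 1000 CPM for NS-I/R and 241 to 267 CPM for Enpa-I/R. The part of neutrophil RNA in the Xbp1 result was not tested. Within the Arg1 cluster 20, which few sham nuclei joined, Xbp1 was 324, 302 and 205 CPM in NS-I/R and 147, 141 and 159 CPM in Enpa-I/R (library totals without TMM scaling). Within cluster 15 it was 34.6, 38.7 and 44.8 CPM in NS-Sham, 82.4, 108 and 113 CPM in NS-I/R and 72.8, 68.5 and 73.4 CPM in Enpa-I/R. In each of these clusters the saline I/R libraries were all above the enpatoran libraries.

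Ddit3, which encodes the pro-apoptotic factor Chop and is a target of Atf4, was not called in any class or over all nuclei. It passed the threshold in 0 of 13 edgeR tests (2 had an unadjusted p under 0.05, and DESeq2 called 0). Cardiomyocyte-like nuclei had 15.8, 32.3 and 33.1 CPM in NS-Sham, 13.3, 9.47 and 27.4 CPM in NS-I/R and 23.6, 24.3 and 28.9 CPM in Enpa-I/R. The groups overlapped, with NS-Sham 1 low and NS-I/R 3 high in their groups. The I/R change was -0.7 (SE 0.37, edgeR adjusted p = 0.144) and the enpatoran difference 0.62 (SE 0.37, 0.245). This gene depended on 1 library: without NS-I/R 3 the I/R change was -1.28 (edgeR adjusted p = 0.00306) and the enpatoran difference 1.19 in cardiomyocyte-like nuclei (0.00652), 1.17 in the endothelial-like class (0.00488) and 0.75 in fibroblast-like nuclei (0.00865). Over all nuclei it was -0.97 with I/R (0.00305) and 1.03 with enpatoran (0.00351) without that library, against -0.53 (0.153) and 0.59 (0.171) with it. With all libraries the enpatoran differences in endothelial-like and fibroblast-like nuclei were 0.78 (SE 0.29, edgeR adjusted p = 0.111) and 0.5 (SE 0.22, 0.152). In endothelial-like nuclei the levels were 12.8, 12.2 and 9.86 CPM in NS-Sham, 9.96, 5.89 and 15.3 CPM in NS-I/R and 15.7, 17.2 and 20.7 CPM in Enpa-I/R. There every Enpa-I/R library was above every NS-I/R library, as for 13.4% of all genes tested in that class. The symbol stands for 2 gene identifiers, of which ENSMUSG00000025408 held 3802 UMIs and ENSMUSG00000116429 held 0. Whether reads were shared between the 2 identifiers, or with Mars beside the gene on the opposite strand, was not tested. The Ddit3 counts carry that uncertainty.

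Among the sensors, Ern1 rose in fibroblast-like and pericyte-like nuclei and was not called in cardiomyocyte-like nuclei. In fibroblast-like nuclei it was 115.0, 91.6 and 93.7 CPM in NS-Sham, 230.1, 224.8 and 160.1 CPM in NS-I/R and 145.1, 140.3 and 141.6 CPM in Enpa-I/R. All NS-I/R libraries were above the rest, with NS-I/R 3 nearest to the enpatoran libraries. The increase was 1.04 (SE 0.15, edgeR adjusted p = 0.000217) and the enpatoran difference -0.53 (SE 0.15, 0.046), which was lost without any 1 of 8 libraries (0.0613 to 0.171), all but NS-I/R 3. In pericyte-like nuclei Ern1 rose by 1.08 (SE 0.22, edgeR adjusted p = 0.00174), and the enpatoran difference of -0.49 (adjusted p = 0.166) was -0.65 without NS-I/R 3 (0.019). Leaving out that library also brought the I/R change under the threshold in endothelial-like (0.41, edgeR adjusted p = 0.0993, to 0.56, 0.0106) and macrophage-like nuclei (0.38, 0.159, to 0.54, 0.0261), and the enpatoran difference over all nuclei (-0.22, 0.128, to -0.26, 0.0256). Cardiomyocyte-like nuclei had 63.3, 63.8 and 67.6 CPM in NS-Sham and 54.9, 51.0 and 61.9 CPM in NS-I/R, a change of -0.21 (SE 0.12, edgeR adjusted p = 0.179) that became -0.3 without NS-I/R 3 (adjusted p = 0.0384). The fibroblast-like change exceeded the cardiomyocyte-like one by 1.34 (edgeR interaction, adjusted p = 0.000397).

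Atf6, the sensor that is cleaved into a transcription factor, moved in opposite directions between classes. In macrophage-like nuclei it was 378.5, 403.4 and 394.8 CPM in NS-Sham, 297.3, 228.5 and 222.0 CPM in NS-I/R and 226.9, 230.9 and 249.3 CPM in Enpa-I/R. All I/R libraries, with or without enpatoran, lay under the sham libraries, and the I/R change was -0.65 (SE 0.15, edgeR adjusted p = 0.00287). It rose in fibroblast-like nuclei from 127.0, 137.2 and 122.4 to 224.5, 210.6 and 162.8 CPM (log2 0.63, SE 0.13, edgeR adjusted p = 0.00204) and in endothelial-like nuclei from 122.4, 127.6 and 127.2 to 199.1, 205.7 and 134.7 CPM (0.52, SE 0.15, 0.0177). The low library in both was NS-I/R 3. The endothelial-like call was lost without any 1 of 5 libraries (edgeR adjusted p 0.0515 to 0.0789), not NS-I/R 3. The macrophage-like change was below the cardiomyocyte-like one by 0.89 (edgeR interaction log2 -0.89, adjusted p = 0.00415). In cardiomyocyte-like nuclei Atf6 was 413.0, 460.7 and 371.1 CPM in NS-Sham, 475.5, 451.2 and 621.3 CPM in NS-I/R and 688.4, 635.2 and 684.9 CPM in Enpa-I/R. The enpatoran libraries were highest. That difference was 0.38 (SE 0.15, edgeR adjusted p = 0.0917) and 0.54 without NS-I/R 3 (adjusted p = 0.00293); in fibroblast-like nuclei it was -0.43 (SE 0.13, edgeR adjusted p = 0.0533) and -0.55 without it (0.000531). Without that library Atf6 was also called in pericyte-like nuclei with I/R (0.44, edgeR adjusted p = 0.0727, to 0.59, 0.00409) and in endothelial-like nuclei with enpatoran (-0.2, 0.397, to -0.37, 0.0148). The enpatoran difference in fibroblast-like nuclei was below that in cardiomyocyte-like nuclei by 0.86 (edgeR interaction log2 -0.86, adjusted p = 0.0311), a difference lost without any 1 of 6 libraries (0.0501 to 0.132).

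**Figure D2:**
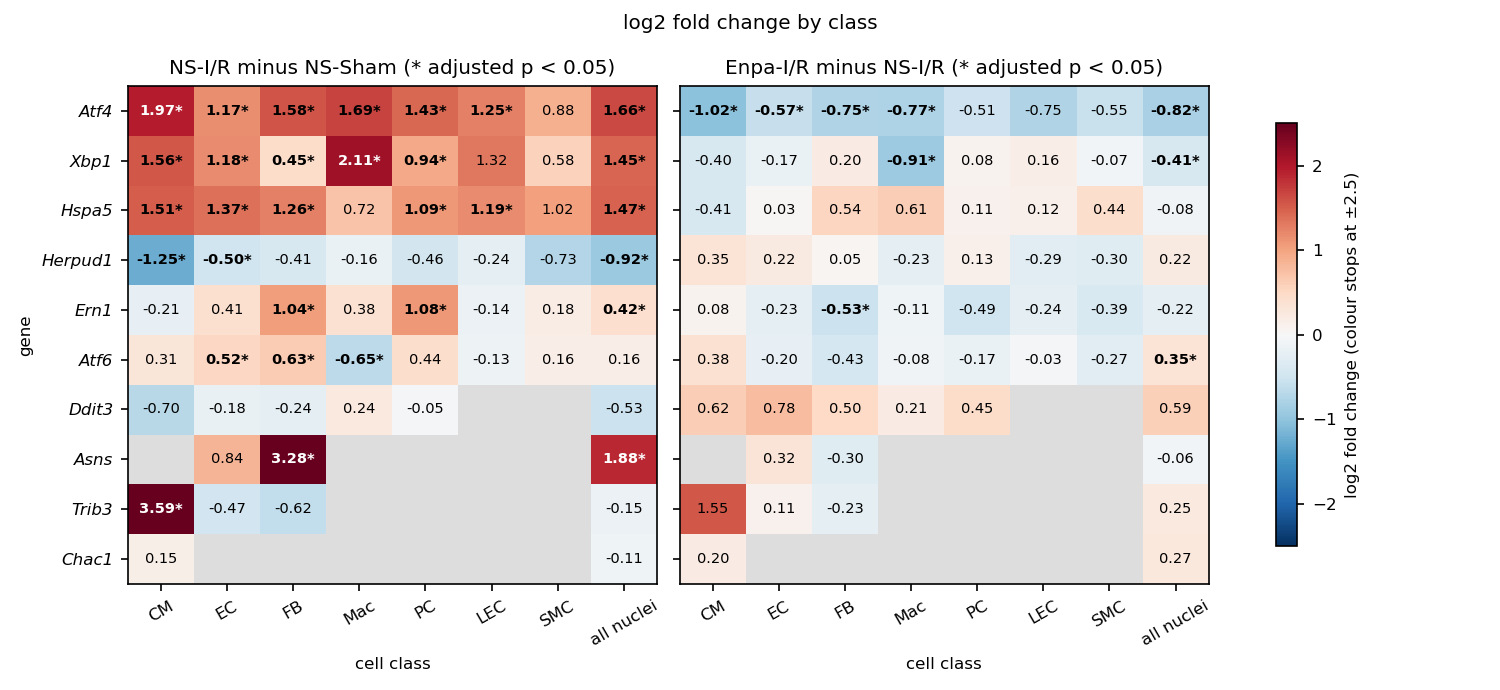
Log2 fold change of the 10 genes (rows) in each class (columns: CM, EC, FB, Mac and PC as above, LEC lymphatic endothelial-like, SMC smooth muscle-like, and all nuclei), NS-I/R minus NS-Sham at left, Enpa-I/R minus NS-I/R at right; a star marks an edgeR adjusted p under 0.05 and grey a gene under the low-count filter. At left Atf4, Xbp1 and Hspa5 are positive in all columns and Herpud1 is negative in all; at right Atf4 is negative in all.

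Hspa5, the main chaperone of the ER lumen, rose with I/R in 5 of 7 classes and over all nuclei, and its enpatoran differences given below did not pass the test with all libraries. Cardiomyocyte-like nuclei had 65.8, 48.2 and 59.3 CPM in NS-Sham, 152.7, 148.2 and 190.6 CPM in NS-I/R and 102.5, 139.4 and 127.7 CPM in Enpa-I/R. The groups did not overlap. The increase was 1.51 (SE 0.17, edgeR adjusted p = 0.000108), and the enpatoran difference of -0.41 did not pass the test (SE 0.16, 95% interval -0.73 to -0.09, adjusted p = 0.0971). In endothelial-like nuclei Hspa5 went from 66.8, 55.6 and 57.3 to 145.4, 156.0 and 160.9 CPM and stood at 152.2, 175.4 and 145.3 CPM in Enpa-I/R. The I/R increase was 1.37 (SE 0.12, edgeR adjusted p = 7.93e-06), and both injured groups overlapped (log2 0.03, 95% interval -0.19 to 0.26, adjusted p = 0.887). Fibroblast-like nuclei had 78.4, 68.4 and 74.0 CPM in NS-Sham, 219.2, 120.4 and 189.7 CPM in NS-I/R and 249.7, 308.8 and 209.3 CPM in Enpa-I/R. It rose by 1.26 with I/R (SE 0.21, edgeR adjusted p = 0.000572), and the further 0.54 with enpatoran did not pass (SE 0.2, adjusted p = 0.104) except without NS-I/R 3 (0.6, adjusted p = 0.0345). Hspa5 also rose in pericyte-like (1.09, SE 0.2, edgeR adjusted p = 0.000769) and lymphatic endothelial-like nuclei (1.19, SE 0.31, 0.0108; 0.0638 without NS-Sham 2), and the smooth muscle-like change was 1.02 (SE 0.31, 0.0507).

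Macrophage-like nuclei differed from cardiomyocyte-like nuclei in this gene. Hspa5 measured 119.8, 104.6 and 100.9 CPM in NS-Sham, 152.7, 99.7 and 282.0 CPM in NS-I/R and 278.9, 279.8 and 263.1 CPM in Enpa-I/R. The NS-I/R libraries spread across the whole range, and NS-I/R 3 alone reached the enpatoran level. The I/R change was 0.72 (SE 0.28, edgeR adjusted p = 0.0595; without NS-I/R 3 it was 0.22, adjusted p = 0.373). The enpatoran difference was 0.61 (SE 0.26, edgeR adjusted p = 0.175) and became 1.12 without that library (adjusted p = 0.000155). Relative to cardiomyocyte-like nuclei, the I/R change was lower by 0.83 (edgeR interaction log2 -0.83, adjusted p = 0.0299) and the enpatoran difference higher by 1.13 (0.00703). The former was lost without any 1 of 4 libraries (0.0595 to 0.179) and the latter without NS-I/R 2 (0.85, 0.0606). In fibroblast-like nuclei the enpatoran difference was higher than in cardiomyocyte-like nuclei by 0.93 (edgeR interaction, adjusted p = 0.0265), lost without any 1 of 3 libraries (0.0829 to 0.114).

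An unnamed cluster touches the sum over all nuclei. Its 417 nuclei, led by the heat-shock genes Hspa1a, Hspa1b and Hsph1, numbered 1 in sham hearts, 407 in NS-I/R (275, 96 and 36 in the 3 libraries) and 9 in Enpa-I/R, and its NS-I/R nuclei summed to 1260 CPM of Hspa5. As library totals, Hspa5 over all nuclei was 202, 150 and 196 CPM in NS-I/R with this cluster and 165, 143 and 194 CPM without it. The classes above do not include it.

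Herpud1, which encodes an ER membrane protein of the degradation machinery and is a known target of both the ER and the Atf4 branch (its promoter window above holds ERSE-II and CARE), went the other way from Hspa5. In cardiomyocyte-like nuclei it was 95.2, 127.4 and 84.8 CPM in NS-Sham, 48.4, 33.9 and 47.5 CPM in NS-I/R and 46.6, 50.6 and 68.0 CPM in Enpa-I/R. Every injured library was below every sham library, and the injured groups overlapped. Herpud1 fell by 1.25 (log2 -1.25, SE 0.21, edgeR adjusted p = 0.00103), and the enpatoran difference was 0.35 (SE 0.21, 95% interval -0.06 to 0.76, adjusted p = 0.243). In endothelial-like nuclei it fell from 63.6, 75.8 and 66.2 to 47.3, 46.4 and 52.6 CPM (log2 -0.5, SE 0.14, edgeR adjusted p = 0.0146), a call lost without NS-Sham 2, NS-I/R 1 or NS-I/R 2 (0.0517 to 0.0689). The change was -0.41 in fibroblast-like (SE 0.17, edgeR adjusted p = 0.0632), -0.46 in pericyte-like (SE 0.29, 0.26) and -0.16 in macrophage-like nuclei (SE 0.24, 0.638). It was -0.24 in lymphatic endothelial-like (SE 0.36, edgeR adjusted p = 0.714) and -0.73 in smooth muscle-like nuclei (SE 0.4, 0.282). The cardiomyocyte-like decrease was larger than that of the 3 classes it was tested against, by 0.82 against endothelial-like (edgeR interaction, adjusted p = 0.0113; 0.0597 without NS-I/R 2 and 0.0665 without NS-Sham 2), 0.95 against fibroblast-like (0.00396) and 1.22 against macrophage-like nuclei (0.00218).

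The change of cluster makeup within cardiomyocyte-like nuclei went along with these levels, so the genes were also read inside single clusters (library totals without TMM scaling). In cluster 1, present in all groups (22.9%, 37.5% and 48.5% of the class), Atf4 was 20.1, 17.0 and 22.7 CPM in NS-Sham, 44.8, 46.2 and 36.2 CPM in NS-I/R and 22.3, 23.9 and 34.9 CPM in Enpa-I/R. The order of the groups was that of the whole class, with a smaller distance between sham and I/R. Hspa5 there was 81.7, 54.5 and 64.4 CPM in NS-Sham, 98.1, 87.3 and 87.7 CPM in NS-I/R and 96.6, 126 and 113 CPM in Enpa-I/R. In cluster 9 it was 183, 193 and 359 CPM in NS-I/R and 107, 192 and 116 CPM in Enpa-I/R. In cluster 0 it was 124, 101 and 170 CPM, then 169, 229 and 263 CPM. The injured groups overlapped in each of these clusters, with the enpatoran libraries tending higher in clusters 0 and 1 and lower in cluster 9, where the class as a whole had -0.41. Xbp1 was 18, 20.2 and 20.2 CPM in NS-I/R and 20.7, 18.3 and 24.3 CPM in Enpa-I/R in cluster 1, and 37.3, 40.9 and 43.8 against 22, 36.3 and 27.8 CPM in cluster 9. The enpatoran libraries were thus all lower in cluster 9 and overlapped the saline libraries in cluster 1. Cluster 9, which sham hearts hardly held, carried 73.5% of the Hspa5 UMIs of cardiomyocyte-like nuclei in NS-I/R. It held 49.0% of these nuclei, with 16886681 UMIs over all genes beside 12648831 in cluster 1. Herpud1 in cluster 1 was 97.3, 126 and 73.9 CPM in NS-Sham and 71.3, 52.3 and 41.4 CPM in NS-I/R, and in cluster 9 of NS-I/R 31.3, 21.9 and 58.0 CPM. In cluster 9, Atf4 was 73.2, 75.8 and 67.4 CPM in NS-I/R and 34.9, 54.1 and 38.6 CPM in Enpa-I/R. The saline libraries were all above the enpatoran libraries in that cluster also. The 10 genes and the pathway lists were kept out of the clustering, but clusters were built from the same nuclei, so these values are descriptions.

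**Figure D3:**
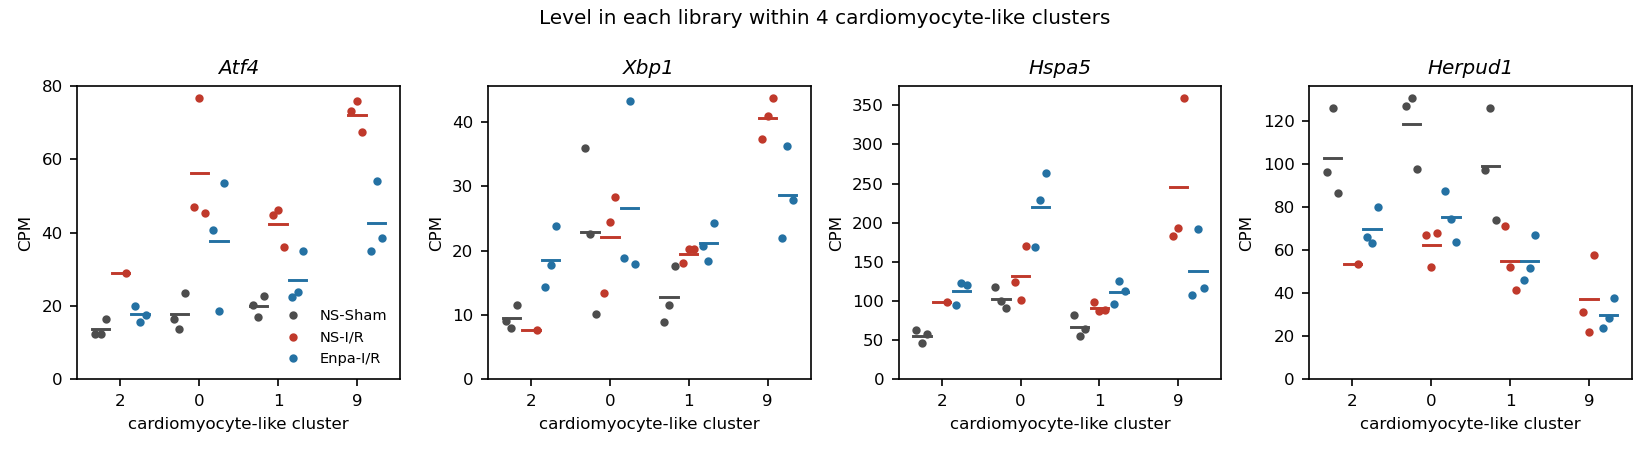
CPM (library totals, linear axes from 0) of Atf4, Xbp1, Hspa5 and Herpud1 within 4 cardiomyocyte-like clusters, ordered 2, 0, 1, 9; points are libraries and bars their mean, and library-cluster combinations with few nuclei are left out. Within clusters 1 and 9 all NS-I/R points of Atf4 lie above the Enpa-I/R points, and Hspa5 is highest in cluster 9 of NS-I/R 3 (359 CPM).

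The genes of amino acid supply and feedback were the least abundant. Asns, asparagine synthetase and a classic Atf4 target with a CARE just before its start, rose in fibroblast-like nuclei from 2.41, 1.0 and 1.51 CPM in NS-Sham to 14.7, 16.6 and 13.9 CPM in NS-I/R, and stayed at 11.1, 14.3 and 11.3 CPM in Enpa-I/R. Every injured library was above every sham library. These are 14, 199 and 135 UMIs in the 3 groups. The I/R change was 3.28 (SE 0.32, edgeR adjusted p = 1.54e-05), and the ratio of the summed CPM was 10.2 (95% counting interval 5.94 to 19). The enpatoran difference was -0.3 (SE 0.23, 95% interval -0.76 to 0.15, edgeR adjusted p = 0.403). Within the Tnc cluster 24, Asns was 25.3, 26.4 and 23.0 CPM in NS-I/R and 18.5, 25.1 and 20.4 CPM in Enpa-I/R, and in cluster 10 it was 2.98, 0 and 4.89 CPM in NS-I/R, from 1, 0 and 5 UMIs. In cluster 11 it was 7.49, 0 and 0 CPM in NS-Sham, from 1, 0 and 0 UMIs, and 9.73, 14.2 and 6.89 CPM in NS-I/R, from 14, 30 and 4 UMIs. The Tnc cluster held 72.9% and cluster 11 24.1% of the Asns UMIs of fibroblast-like nuclei in NS-I/R. They held 40.7% and 38.1% of these nuclei, with 5884358 and 4124972 UMIs over all genes. In endothelial-like nuclei the change was 0.84 (SE 0.31, edgeR adjusted p = 0.0503; 0.0451 without NS-I/R 3). In cardiomyocyte-like nuclei Asns had 8, 25 and 50 UMIs and did not pass the low-count filter. In macrophage-like nuclei 0 UMIs in NS-Sham stood against 10 in NS-I/R, which was at least 1.93-fold higher when the sham group was set to a floor of 3 counts.

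Trib3, a pseudokinase that feeds back on Atf4 and Akt signalling, was nearly undetected in sham cardiomyocyte-like nuclei. Their 3 NS-Sham libraries held 2 UMIs, against 26 after saline I/R and 81 after Enpa-I/R, or 0, 0.12 and 0 CPM, then 0.644, 0.313 and 1.63 CPM, then 1.9, 1.25 and 4.25 CPM. The ratio of summed CPM between NS-I/R and NS-Sham was 13.5 (95% counting interval 3.38 to 117). The test called it higher with I/R (log2 3.59, SE 1.09, edgeR adjusted p = 0.0208), but not without NS-I/R 3, NS-Sham 1 or NS-Sham 3 (adjusted p 0.0577 to 0.0618). It was 6.11 without NS-Sham 2 and 0.73 with a mitochondrial limit of 20% (edgeR adjusted p = 0.452), and was also lost with doublets kept. The enpatoran difference was 1.55 (SE 0.62, edgeR adjusted p = 0.0989), and 2.41 without NS-I/R 3 (0.0119), opposite in sign to that of Atf4. Endothelial-like nuclei had 124, 83 and 93 UMIs and an I/R change of -0.47 (SE 0.27, edgeR adjusted p = 0.191). Fibroblast-like nuclei had 80, 74 and 54 UMIs and a change of -0.62 (SE 0.42, 0.254). Both lay below the cardiomyocyte-like change (edgeR interaction log2 -3.89, adjusted p = 0.00836, and -4.02, 0.00538).

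Chac1, which degrades glutathione, gave 40, 44 and 54 UMIs in cardiomyocyte-like nuclei, with an I/R change of 0.15 (SE 0.48, 95% interval -0.79 to 1.09, edgeR adjusted p = 0.814). It was called in 0 of 4 tests (0 with an unadjusted p under 0.05, DESeq2 0). In endothelial-like nuclei, where it did not pass the low-count filter, it had 27 UMIs in NS-Sham, 4 after saline I/R and 19 after Enpa-I/R. The levels were 4.0, 2.73 and 1.88 CPM, then 0.356, 0.654 and 0.339 CPM, then 1.27, 2.62 and 2.63 CPM. The NS-I/R libraries lay below all others. The ratio of NS-I/R to NS-Sham was 0.158 (95% counting interval 0.0401 to 0.453) and that of Enpa-I/R to NS-I/R 4.51 (1.5 to 18.2); both intervals cover counting error only. In the joint fit with cardiomyocyte-like nuclei, where the gene passed the filter, the endothelial-like I/R change was lower by 2.71 (edgeR interaction log2 -2.71, adjusted p = 0.0299), which was lost without any 1 of 3 libraries (0.0729 to 0.191).

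**Figure D4:**
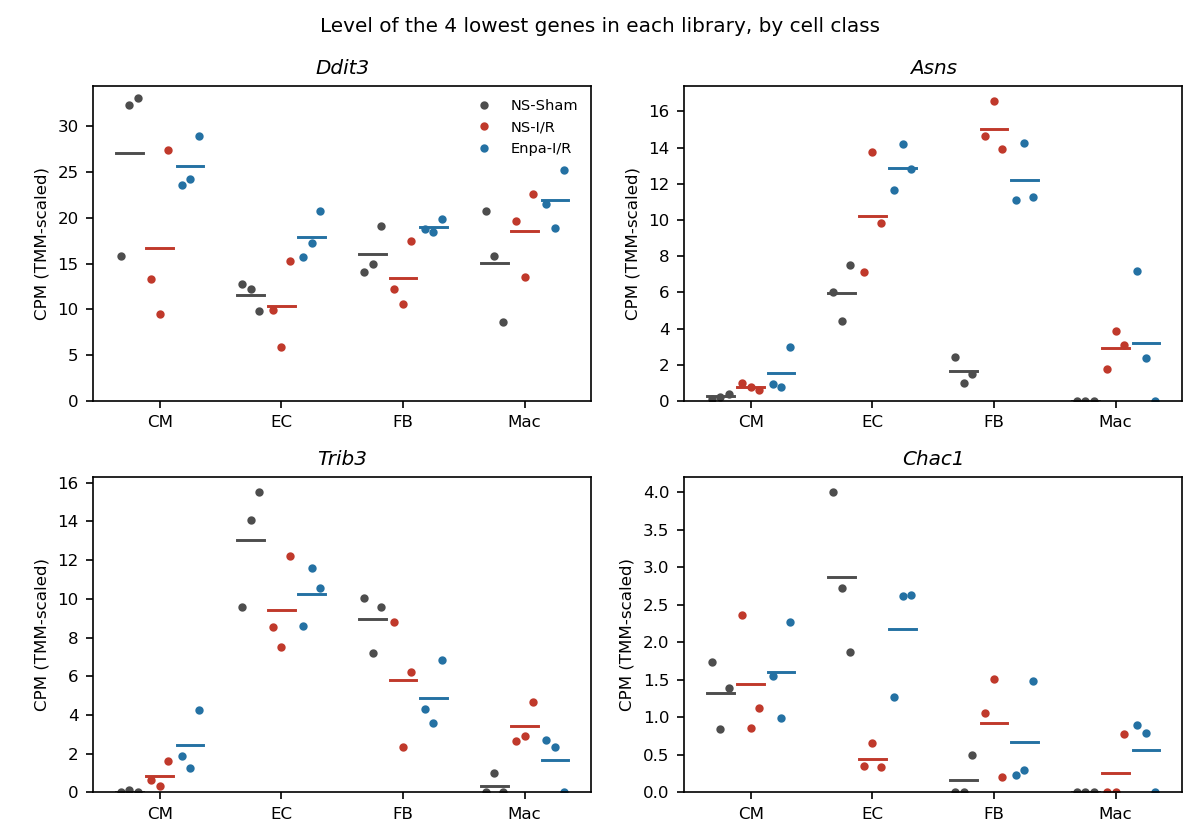
CPM of Ddit3, Asns, Trib3 and Chac1 (linear axes from 0) in each library for CM, EC, FB and Mac, with the group mean as a bar. Asns separates injured from sham fibroblast-like libraries, Trib3 is at or near 0 in sham cardiomyocyte-like nuclei, and Chac1 is lowest in the NS-I/R endothelial-like libraries.

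With enpatoran, few of the 10 genes were called and all within classes were lower. Of those tested, 1 of 9 was lower in cardiomyocyte-like nuclei (Atf4; 19.7% of all genes called, 8.11% higher and 11.6% lower), 1 of 9 in endothelial-like (Atf4; 6.5%, 2.89% higher and 3.6% lower), 2 of 9 in fibroblast-like (Atf4, Ern1; 8.85%, 3.45% higher and 5.4% lower) and 2 of 7 in macrophage-like nuclei (Atf4, Xbp1; 6.2%, 2.91% higher and 3.29% lower). Pericyte-like nuclei had 0 of 7 by edgeR (background 5.61%, 2.8% higher and 2.81% lower; 2 with an unadjusted p under 0.05, DESeq2 0) and neutrophil-like nuclei 0 of 7 (1.88%, 1.18% higher and 0.696% lower; 1 unadjusted, DESeq2 0). Lymphatic endothelial-like nuclei (background 1.04%, 0.663% higher and 0.376% lower) and those like smooth muscle (0.0615%, all higher) had 0 of 6 by edgeR, with 0 unadjusted and 0 by DESeq2. Over all nuclei Atf4 and Xbp1 were lower (log2 -0.82, edgeR adjusted p = 0.00865, and -0.41, 0.0188) and Atf6 was higher (0.35, 0.0477), 3 of 10 against 16.9% (7.32% higher, 9.63% lower). The Xbp1 call was lost without any 1 of 5 libraries (0.0535 to 0.0854) and the Atf6 call without any 1 of 7 (0.0569 to 0.165). Leaving out NS-I/R 3 raised the counts from 1 to 5 in cardiomyocyte-like, 1 to 3 in endothelial-like, 2 to 5 in fibroblast-like, 2 to 3 in macrophage-like and 0 to 2 in pericyte-like nuclei. Leaving out a different single library could lower the count to 0 in cardiomyocyte-like, endothelial-like and fibroblast-like nuclei.

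Nuclei that carried a transcript were counted after thinning each nucleus to 1000 UMIs. In macrophage-like nuclei Xbp1 was found in 3.19 ± 1.25% of nuclei in NS-Sham, 16.2 ± 2.43% after saline I/R and 8.91 ± 0.383% after Enpa-I/R (SD, 3 libraries each). Before thinning the shares were 9.33%, 32.0% and 22.9%. Atf4 in cardiomyocyte-like nuclei was found in 1.6 ± 0.262%, 6.19 ± 1.03% and 2.78 ± 0.871% of thinned nuclei. Unthinned shares were 12.1%, 39.2% and 22.2%. Hspa5 in macrophage-like nuclei was found in 8.37 ± 1.11%, 14.7 ± 8.05% and 22.1 ± 0.103%, and in 19.9%, 28.9% and 41.9% unthinned. Its thinned NS-I/R shares were 12.3%, 8.15% and 23.7%, so NS-I/R 3 lay above the Enpa-I/R libraries and the others below them. In these 3 cases the order of the group means was that of the CPM. Hspa5 in cardiomyocyte-like nuclei was found in 5.64 ± 0.941%, 11.8 ± 2.59% and 12.1 ± 2.24% (35.1%, 51.4% and 53.7% unthinned), so its share was not lower in Enpa-I/R while its mean CPM was, and no order of the injured groups is read from it. The exact two-sided permutation test with 3 libraries against 3 cannot go below p = 0.1, and over the 48 such tests the smallest adjusted value was 0.218. These genes are known in all the classes, so no class gives a level that free RNA alone would produce. As a gauge, the summed level of 8 cardiomyocyte markers in endothelial-like nuclei was 6000 to 6450 CPM for NS-Sham, 2790 to 3340 CPM for NS-I/R and 3590 to 4980 CPM in Enpa-I/R. Neutrophil markers in cardiomyocyte-like nuclei summed to 0.71 to 2.49, 27.9 to 79.1 and 18.1 to 23.2 CPM. Their part in the results was not tested.

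The wider pathway was followed as 75 further genes in 5 lists. These were chosen by function, with earlier results of these data known. With I/R 46 of 70 tested rose and 5 fell in cardiomyocyte-like nuclei, where 24.3% of all genes rose and 22% fell, with a median log2 change of 1 beside 0.02 over all genes tested. Of the ER chaperones and folding enzymes 14 of 16 rose and 0 fell, with a median of 1.47. Manf, a secreted ER stress factor, rose from a mean of 13.5 to 71.6 CPM (log2 2.41, SE 0.29, edgeR adjusted p = 0.000157) and Pdia4, a disulfide isomerase, from 3.68 to 19.3 CPM (2.37, SE 0.51, 0.00386). The NS-I/R libraries spread widely, with an SD of 27.7 CPM for Manf and 14.5 CPM for Pdia4. Of the ER degradation list 7 of 11 rose and 1 fell, the lectin Os9 (log2 -0.67, SE 0.18, edgeR adjusted p = 0.0134). Of the integrated stress response list 7 of 11 rose and 2 fell. Atf3, an Atf4-induced factor, rose from 6.44 to 61.3 CPM (3.31, SE 0.45, edgeR adjusted p = 0.000298), while Vldlr, a lipoprotein receptor, fell from 407 to 185 CPM (log2 -1.14, SE 0.18, 0.000829). Of the amino acid list (transporters, serine synthesis, tRNA synthetases) 14 of 21 rose and 2 fell, and of the sensors and processing enzymes 4 of 11 rose.

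In the other classes 32 of 70 rose and 2 fell in endothelial-like (17.8% and 16.4% of all genes), 33 of 72 and 8 in fibroblast-like (23.2% and 23%), 23 of 62 and 3 in macrophage-like (17.7% and 16.5%) and 19 of 56 and 1 in pericyte-like nuclei (12.1% and 11.9%). In lymphatic endothelial-like nuclei 5 of 37 rose and 0 fell (6.72% and 8.78%), and in smooth muscle-like nuclei 2 of 41 rose and 2 fell (3.7% and 5.55%). Differences between the lists were not tested. In endothelial-like nuclei 16 of 21 amino acid genes rose and 0 fell, and 6 of 16 chaperones rose; Slc3a2, the heavy chain of amino acid exchangers, went from 40.7 to 123 CPM (log2 1.59, SE 0.16, edgeR adjusted p = 1.93e-05). In fibroblast-like nuclei 16 of 23 amino acid genes rose and 1 fell, led by the leucine transporter Slc7a5 (3.18, SE 0.32, edgeR adjusted p = 1.88e-05), the serine enzyme Psat1 (2.21, SE 0.28, 8.87e-05) and the arginine transporter Slc7a1 (1.72, SE 0.18, 2.38e-05). Among chaperones 6 of 16 rose and 1 fell. The stress response genes Stc2 (log2 -1.79, SE 0.25, edgeR adjusted p = 0.000158) and Atf5 (-1.41, SE 0.22, 0.000356) fell there. In macrophage-like nuclei 10 of 17 amino acid genes rose and 0 fell. Slc7a11, the cystine importer, went from a mean of 3.65 CPM in sham hearts to 206 CPM in NS-I/R and 78.6 CPM in Enpa-I/R. It rose by 5.63 (SE 0.47, edgeR adjusted p = 4.41e-07) and was lower with enpatoran by 1.4 (log2 -1.4, SE 0.27, 0.00831). Slc7a5 did likewise (3.92, SE 0.61, edgeR adjusted p = 0.000156, then -1.46, SE 0.39, 0.0377). Sham levels were low and uneven, with an SD of 4.04 CPM for Slc7a11 and 2.99 ± 2.89 CPM for Slc7a5. The sizes of these 2 increases are therefore uncertain.

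With enpatoran 16 of 70 pathway genes were lower in cardiomyocyte-like nuclei and 3, all of the amino acid list, were higher (11.6% and 8.11% of all genes), with a median of -0.21 beside 0 over all genes tested. Atf3 (log2 -1.51, SE 0.4, edgeR adjusted p = 0.0296), Manf (-1.36, SE 0.28, 0.0146) and the isoleucyl-tRNA synthetase Iars (-1.14, SE 0.26, 0.0193) were among the decreases. Of the integrated stress response list 5 of 11 were lower and 0 higher. In fibroblast-like nuclei 5 of 72 pathway genes were higher and 5 lower (3.45% and 5.4% of all genes). The chaperones Calr (66.6, 69.8 and 180 CPM in the 3 groups; log2 1.36, SE 0.29, edgeR adjusted p = 0.0242) and Hsp90b1 (112, 124 and 253 CPM; 1.03, SE 0.18, 0.0176) were higher with enpatoran, 4 of 16 chaperones in all with 0 lower. The NS-I/R libraries spread widely, with an SD of 40.5 CPM for Calr and 37.5 CPM for Hsp90b1. Of the amino acid genes 4 of 23 were lower, among them Psat1 (-0.86, SE 0.24, edgeR adjusted p = 0.0479) and Slc3a2 (-0.63, SE 0.14, 0.0242), and 0 higher. Calr was higher in endothelial-like nuclei too (1.03, SE 0.27, edgeR adjusted p = 0.0395). There it was 55.7 ± 5.0 CPM in NS-Sham, 56.8 ± 31.4 CPM in NS-I/R and 116 ± 13.4 CPM in Enpa-I/R, with the same wide spread in NS-I/R. Without NS-I/R 3 the number of pathway genes called rose from 19 to 34 in cardiomyocyte-like, 2 to 18 in endothelial-like, 10 to 46 in fibroblast-like and 5 to 20 in macrophage-like nuclei. None was called without NS-I/R 1 in the first 3 of these classes, or without Enpa-I/R 1 in macrophage-like nuclei.

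**Figure D5:**
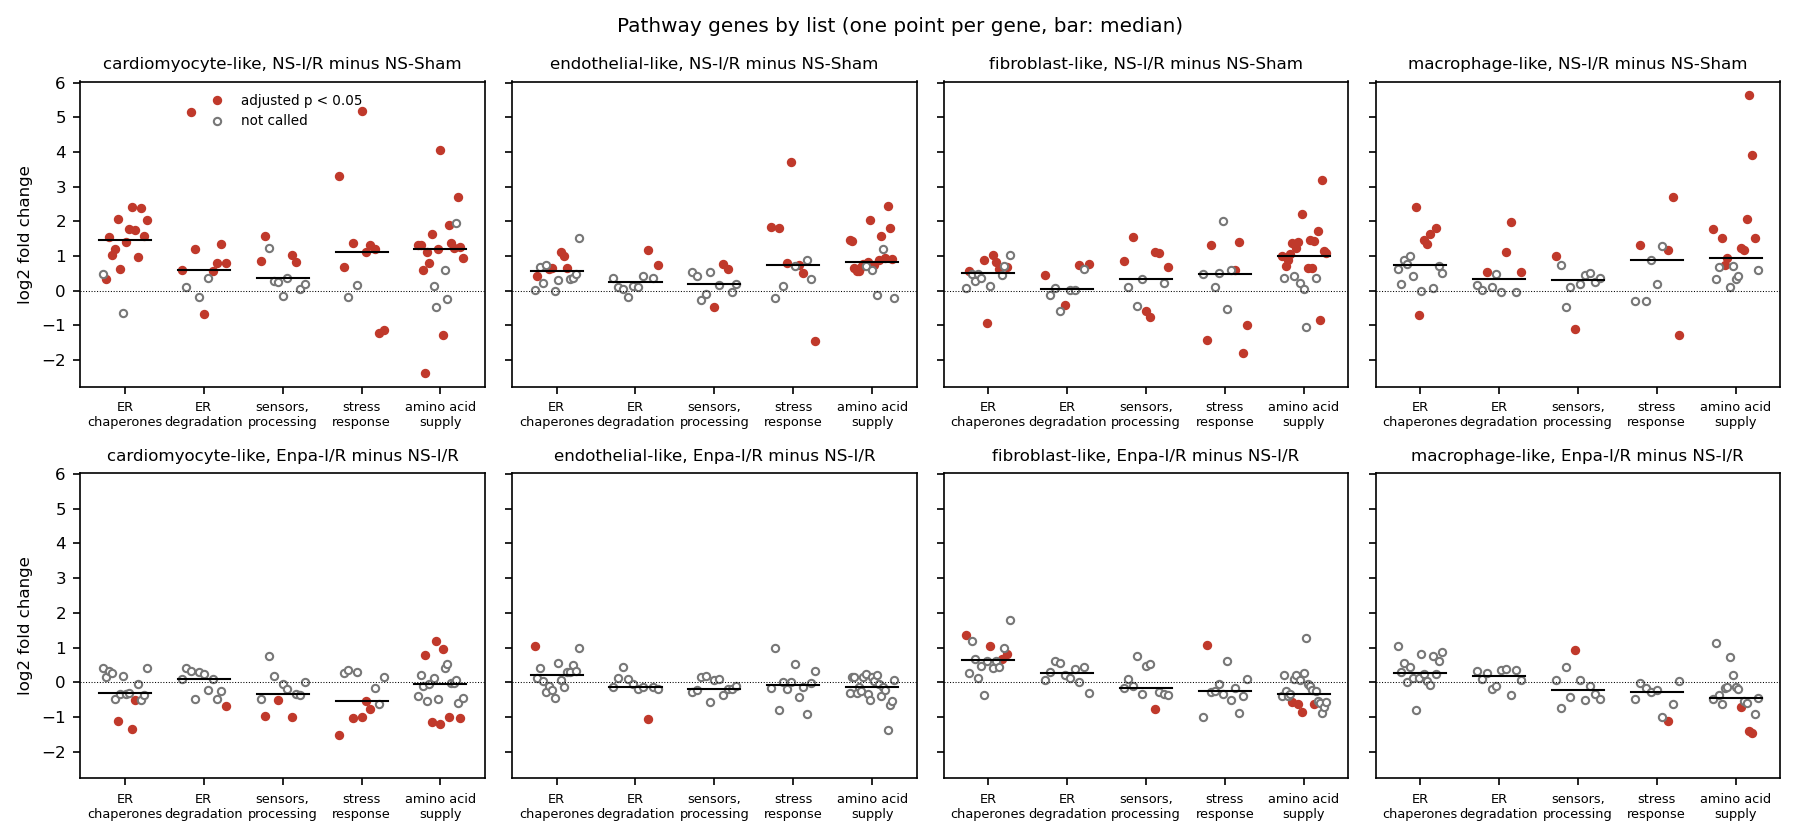
Log2 fold change of each pathway gene in 5 lists, by class (columns) and comparison (top row NS-I/R minus NS-Sham, bottom row Enpa-I/R minus NS-I/R); filled points have an edgeR adjusted p under 0.05, open points do not, and bars are list medians. The chaperone median is highest in cardiomyocyte-like nuclei with I/R (1.47) and is 0.65 in fibroblast-like nuclei with enpatoran.

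Across the 63 class and library sums (7 classes, 9 libraries), the genes with the most similar log levels among 10101 candidates were Ncl (Pearson r 0.841) and Fosl1 (0.831) for Atf4, Ccl2 (0.855) and Il4ra (0.83) for Xbp1, Eef1g (0.836) and Vmp1 (0.833) for Hspa5, Smg1 (0.91) for Atf6, Abcc1 (0.825) for Ern1, Ivns1abp (0.819) for Herpud1 and Emsy (0.721) for Ddit3. Next for Xbp1 came Il1r2 (0.825), a gene of the neutrophil marker list, and the part of neutrophil RNA in this was not tested. Among the 10 genes, Atf4 and Xbp1 had r = 0.582, Atf4 and Hspa5 0.566, and Xbp1 and Hspa5 0.577, while Atf4 and Ddit3 had -0.126. Sums of 1 library share its depth and sums of 1 class its cells, so these values describe the data and are not tests.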

How the data were processed

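The authors deposited, for each of the 9 libraries, a matrix of raw UMI counts per gene and nucleus from the 10x 3′ v3.1 assay. Per the submitters' processing notes, Cell Ranger 6.1.1 and Seurat were used; the matrix headers name version 8.0.0. The notes list the builds GRCh38 and GRCm39 without roles, so no file coordinates are printed; promoter sequences come from RefSeq's GRCm38.p6 table.

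Nuclei with at least 500 genes and at most 5% mitochondrial UMIs were kept with scanpy 1.11.5. Scrublet's own threshold marked almost no nuclei in 8 of 9 libraries, so the highest scores were removed at 0.8% per 1000 barcodes (133 to 538 nuclei a library). Leiden clusters (2000 variable genes, 30 components, 15 neighbours, resolution 1; the 10 genes, pathway lists and mitochondrial genes left out) were named from marker lists; cluster 25 was left unnamed after its leading genes were seen. Counts were summed per class and library, with at least 25 nuclei in every library, and edgeR 4.0.16 was applied (quasi-likelihood test after filterByExpr and TMM, 1 fit of 3 groups, Benjamini-Hochberg over all genes). Interactions used library as a block. DESeq2 1.42.0 was an alternative. Shares of nuclei used an exact permutation test. The tests were checked on simulated data, but the outcome is not given here and is not used as support for any result. Intervals on UMI ratios are exact and, like floors, cover counting error only.

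The named genes are all 10 members, plus up to 3 called pathway genes with the largest increase and 3 with the largest decrease per class and comparison at a mean of at least 10 CPM, not all of them printed. The members and lists were chosen with earlier results of these data known. The nearest genes by level needed a mean of at least 10 CPM. Replicate numbers gave no pairing: same-number correlations of deviations ran from -0.27 to 0.2.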

Additional observations from a re-analysis of the deposited data

Results flagged for a closer look

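These differences between cell classes passed edgeR's interaction test (adjusted p under 0.05), each the effect in another class minus that in cardiomyocyte-like nuclei. For I/R in endothelial-like nuclei these were Atf4 (log2 -0.76), Trib3 (-3.89), Chac1 (-2.71) and Herpud1 (0.82), 4 genes where 14.7% of all genes tested differed. In fibroblast-like nuclei they were Xbp1 (-1.04), Ern1 (1.34), Trib3 (-4.02) and Herpud1 (0.95), where 21.2% of all genes differed. In macrophage-like nuclei they were Hspa5 (-0.83), Atf6 (-0.89) and Herpud1 (1.22), against 14.1%. For enpatoran they were Hspa5 (0.93) and Atf6 (-0.86) in fibroblast-like nuclei, against 4.5%, and Hspa5 (1.13) in macrophage-like nuclei, against 4%. Cardiomyocyte-like nuclei enter all of these differences. The Trib3 values rest on 2 UMIs in sham cardiomyocyte-like nuclei.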

How the results depend on the processing

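There were 1368 alternative values of 73 single-gene log2 changes. Of these, 1234 kept direction and side of the threshold, 86 lost the call, 41 gained it and 7 turned sign. The causes were not tested unless an alternative has fewer samples or UMIs by its construction. Only the 40 called changes could lose a call. With enpatoran, of 19 alternatives each, Atf4 lost it in 12 in macrophage-like, 9 in endothelial-like, 6 in fibroblast-like and 1 in cardiomyocyte-like nuclei. Ern1 in fibroblast-like nuclei lost it in 10, Atf6 over all nuclei in 13 and Xbp1 over all nuclei in 6. Xbp1 in macrophage-like nuclei and Atf4 over all nuclei lost it in 0. For I/R the called members numbered 1 in lymphatic endothelial-like nuclei with 6 libraries, DESeq2 size factors, DESeq2's Wald test or a minimum of 1000 genes and 0 after thinning to 1000 UMIs, 5 in macrophage-like nuclei without the low-count filter, and 1 in smooth muscle-like nuclei with that setting, with DESeq2 size factors or with doublets kept. Pathway genes called after thinning numbered 29 in cardiomyocyte-like and 17 in macrophage-like nuclei. For enpatoran the 6-library fit called 0 members in endothelial-like and fibroblast-like and 1 in macrophage-like nuclei and over all nuclei, and 2, 1 and 0 pathway genes in cardiomyocyte-like, endothelial-like and fibroblast-like nuclei. Without the low-count filter it was 2, 4 and 1 members in endothelial-like, fibroblast-like and neutrophil-like nuclei and 6 pathway genes in endothelial-like, 24 in fibroblast-like and 9 in macrophage-like nuclei. DESeq2's Wald test called 19 pathway genes in fibroblast-like nuclei, the mitochondrial limit of 20% left 11 in cardiomyocyte-like nuclei, Leiden resolution 2 gave 6 in endothelial-like nuclei, a minimum of 1000 genes gave 1 there, and thinning gave 6, 1 and 3 in cardiomyocyte-like, endothelial-like and macrophage-like nuclei. Members called with enpatoran were 0 in endothelial-like nuclei with a minimum of 1000 genes or thinning, 1 in fibroblast-like nuclei with doublets kept, and 1 in macrophage-like nuclei with DESeq2's Wald test, the limit of 20%, the minimum of 1000 genes or thinning. Uncalled values that turned sign were Chac1 with I/R in cardiomyocyte-like nuclei (-0.36 at the limit of 20%), Hspa5 with enpatoran in endothelial-like nuclei (-0.63 at resolution 2), and, without thinning, the enpatoran differences in the share of nuclei with Herpud1 in fibroblast-like (1.99 percentage points) and Ddit3 in macrophage-like nuclei (1.25). A minimum of 1000 genes was not run for neutrophil-like nuclei, which then had under 25 nuclei in a library.

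The labels do not say that a replicate number is shared between groups. With the number as a replicate block, 4 pathway genes were called in endothelial-like nuclei with enpatoran, and 1 member each in lymphatic endothelial-like nuclei with I/R and macrophage-like nuclei with enpatoran.

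Leaving out 1 library at a time, members called with enpatoran ranged from 0 to 5 in cardiomyocyte-like, 0 to 3 in endothelial-like, 0 to 5 in fibroblast-like, 1 to 3 in macrophage-like, 0 to 2 in pericyte-like and 0 to 1 in neutrophil-like nuclei, and 1 to 5 over all nuclei. Pathway genes ranged from 0 to 34, 0 to 18, 0 to 46 and 0 to 20 in the first 4 of these classes. With I/R members ranged from 3 to 7 in endothelial-like, 0 to 2 in lymphatic endothelial-like and 0 to 1 in smooth muscle-like nuclei. Members that differed from cardiomyocyte-like nuclei ranged from 1 to 6 (I/R) and 0 to 2 (enpatoran) for endothelial-like, 0 to 5 (enpatoran) for fibroblast-like, and 2 to 5 and 0 to 2 for macrophage-like nuclei. Chac1 in cardiomyocyte-like nuclei (I/R) ran from -0.37 to 0.44, Hspa5 in endothelial-like nuclei (enpatoran) from -0.05 to 0.09 and Herpud1 in macrophage-like nuclei (I/R) from -0.33 to 0.11. Depth limits Asns, Trib3 and Chac1 most.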

Other observations

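Further genes of the pathway lists were called in 1 or more classes. In macrophage-like nuclei Sesn2, a leucine sensor and Atf4 target, rose with I/R from a mean of 3.42 to 20.8 CPM (log2 2.7, SE 0.53, edgeR adjusted p = 0.00107), as it did in fibroblast-like nuclei (1.4, SE 0.37, 0.00966). Its macrophage-like sham level was low and uneven between libraries (SD 2.74 CPM). Eif2ak2, the double-stranded RNA kinase PKR, fell in macrophage-like nuclei from 109 to 51.4 CPM (log2 -1.11, SE 0.21, 0.000719) and was higher with enpatoran (0.92, SE 0.2, 0.0156). Ppp1r15b, a phosphatase subunit that reverses the translation block, rose with I/R in the same nuclei (1.18, SE 0.32, edgeR adjusted p = 0.00941) and was lower with enpatoran (log2 -1.11, SE 0.29, edgeR adjusted p = 0.0341). In fibroblast-like nuclei Atf5 fell with I/R and was higher with enpatoran (1.07, SE 0.22, edgeR adjusted p = 0.0211), and Eif2ak4, the amino acid sensor Gcn2, was lower with enpatoran (-0.78, SE 0.2, 0.0356). In endothelial-like nuclei Cebpb rose from 8.75 to 30.9 CPM (1.82, SE 0.25, edgeR adjusted p = 0.000203) and the ER degradation factor Selenos rose (1.17, SE 0.2, 0.00077) and was lower with enpatoran (-1.06, SE 0.2, 0.0117). Both genes also rose in fibroblast-like and macrophage-like nuclei. Vldlr fell with I/R in endothelial-like (-1.44, SE 0.24, edgeR adjusted p = 0.000609), fibroblast-like (-0.98, SE 0.17, 0.000882) and macrophage-like nuclei (-1.27, SE 0.33, 0.00687).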
